A study of Mus musculus with 15 samples.

Results

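Wnt ligands, R-spondins and Dickkopfs are the secreted proteins that start, amplify and restrain Wnt signalling, and 10 of their genes were followed in crypts of the mouse small intestine. They were Wnt3, Wnt6 and Wnt9b, known as ligands of the crypt epithelium, the stromal ligands Wnt2b, Wnt4 and Wnt5a, the R-spondins Rspo1 and Rspo3, and the Dickkopfs Dkk2 and Dkk3. They were chosen by symbol, through the transcript accession that the array gives for each probe, and each had 1 probe, so 10 of the 39429 probes on the array belong to them. Of these 10 probes, 8 were bright enough to be tested, among 28488 tested probes in all.

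Wnt ligands bind Frizzled receptors together with the co-receptors Lrp5 and Lrp6, and the signal keeps intestinal stem cells dividing. R-spondins bind Lgr receptors and spare Frizzled from removal at the membrane, which makes a cell respond more strongly to a Wnt, while Dickkopfs such as Dkk2 bind Lrp5 and Lrp6 and block them. In the mouse small intestine Wnt3 is known as a product of Paneth cells, the secretory cells at the crypt base, whereas the stroma under the epithelium supplies other Wnts and the R-spondins.

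Crypts came from mice aged 6 to 8 weeks, 24 h after antibody. The N1N2 plus Lrp6 group had received a single dose of antibodies that block the receptors Notch1 and Notch2, with 30 mg/kg of an antibody that blocks Lrp6. The N1N2 group had received the Notch antibodies without it, and the control group an IgG control antibody. The Notch antibody dose is labelled with a concentration, so the amount each mouse received is unknown here. Each group had 5 arrays, which the design text calls biological replicates, and neither the strain nor whether an array holds 1 animal or a pool is given in the sources used here, so p-values measure the spread between these arrays. Each array carried crypt RNA in red and a universal mouse reference RNA in green, with no dye swap. A level below is the log2 ratio of crypt over that reference, a change is a difference between group means of it, and a level of 1 probe is not comparable with that of another.

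Spots well above background in the crypt channel made up 57.2% to 73.6% of an array in the N1N2 plus Lrp6 group, 70.1% to 77.2% in the N1N2 group and 71.1% to 79.8% in the control group. Of 6 slides, only 1 held both N1N2 and control arrays, 2 of each. Crypts could carry other cells of the gut wall, so marker genes were read on the same arrays. All 10 epithelial markers were well above background on every array, and their log2 ratios averaged 5.43 ± 0.22 with N1N2 plus Lrp6, 5.58 ± 0.24 with N1N2 and 5.42 ± 0.05 in the control group (SD, n = 5 each). The 20 markers of mesenchyme and muscle had a mean of -3.42 ± 0.28, -2.99 ± 0.13 and -2.73 ± 0.27 in these groups, and their summed share of the crypt signal was 96.1 to 160 ppm, 164 to 216 and 169 to 241. The 6 lung epithelium markers had a mean over 4 tested genes of 2.24 ± 0.61 with N1N2 plus Lrp6, 0.16 ± 0.07 with N1N2 and 0.49 ± 0.33 in the control group. Their summed signals were 12.8 to 134, 2.45 to 3.83 and 2.49 to 6.47 ppm in these groups. Of these markers, Sftpd and Scgb1a1 were well above background on all 15 arrays. Sftpc, Sftpa1 and Sftpb were so on 12, 5 and 3 arrays, and Nkx2-1 on none. The part of these marker groups in the changes described here was not tested. The check of the Notch block was Hes1, a Notch target, which fell by 0.87 on the log2 scale in the N1N2 group against the control group (limma, adjusted p = 0.00068). With both treatments Hes1 was 0.33 lower than in the control group and did not pass (log2 change -0.33, adjusted p = 0.32).

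Wnt3 and Rspo1 carried the differences between groups, and the bases before their annotated starts are shown because Wnt3 is the member whose change with Notch block was largest and Rspo1 the one that changed the other way. Both windows hold the 250 bases before the RefSeq start on GRCm38.p6, plus strand, at chr11:103773925-103774174 for Wnt3 and chr4:124986180-124986429 for Rspo1. Capitals mark TTCCCA, which is TGGGAA on the other strand, the core recognised by RBPJ, the DNA-binding partner of Notch.
Wnt3: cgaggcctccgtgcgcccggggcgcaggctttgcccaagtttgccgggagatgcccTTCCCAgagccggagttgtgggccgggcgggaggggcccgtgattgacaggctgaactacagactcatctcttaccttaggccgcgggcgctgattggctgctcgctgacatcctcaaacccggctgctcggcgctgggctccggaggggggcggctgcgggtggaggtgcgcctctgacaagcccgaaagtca
Rspo1: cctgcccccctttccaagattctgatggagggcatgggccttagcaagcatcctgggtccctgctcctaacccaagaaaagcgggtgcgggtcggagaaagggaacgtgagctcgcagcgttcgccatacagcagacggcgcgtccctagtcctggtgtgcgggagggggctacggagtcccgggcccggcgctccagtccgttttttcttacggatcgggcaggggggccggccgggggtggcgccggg
The Wnt3 window had 68% G and C with 22 CpG, and the Rspo1 window 66.8% with 22 CpG, where the median over 27025 promoters was 52% with 6 CpG. Besides TGGGAA, the windows were searched on both strands for CTTTGA, the core recognised by TCF and LEF factors of the Wnt pathway, and CAGNTG, an E-box of the kind bound by Atoh1. Wnt3 held TTCCCA once, beginning 194 bases before the start, and neither of the others. Rspo1 held none of them. Over all promoters of this length, 21.5% held TGGGAA, 14% CTTTGA and 44.5% CAGNTG, so a match is common and says nothing about binding. Of the 10 members, 7 matched a promoter in the RefSeq table. Among those, CAGNTG occurred in Wnt6, Wnt9b, Wnt2b and Wnt4 and in no other.

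**Figure D1:**
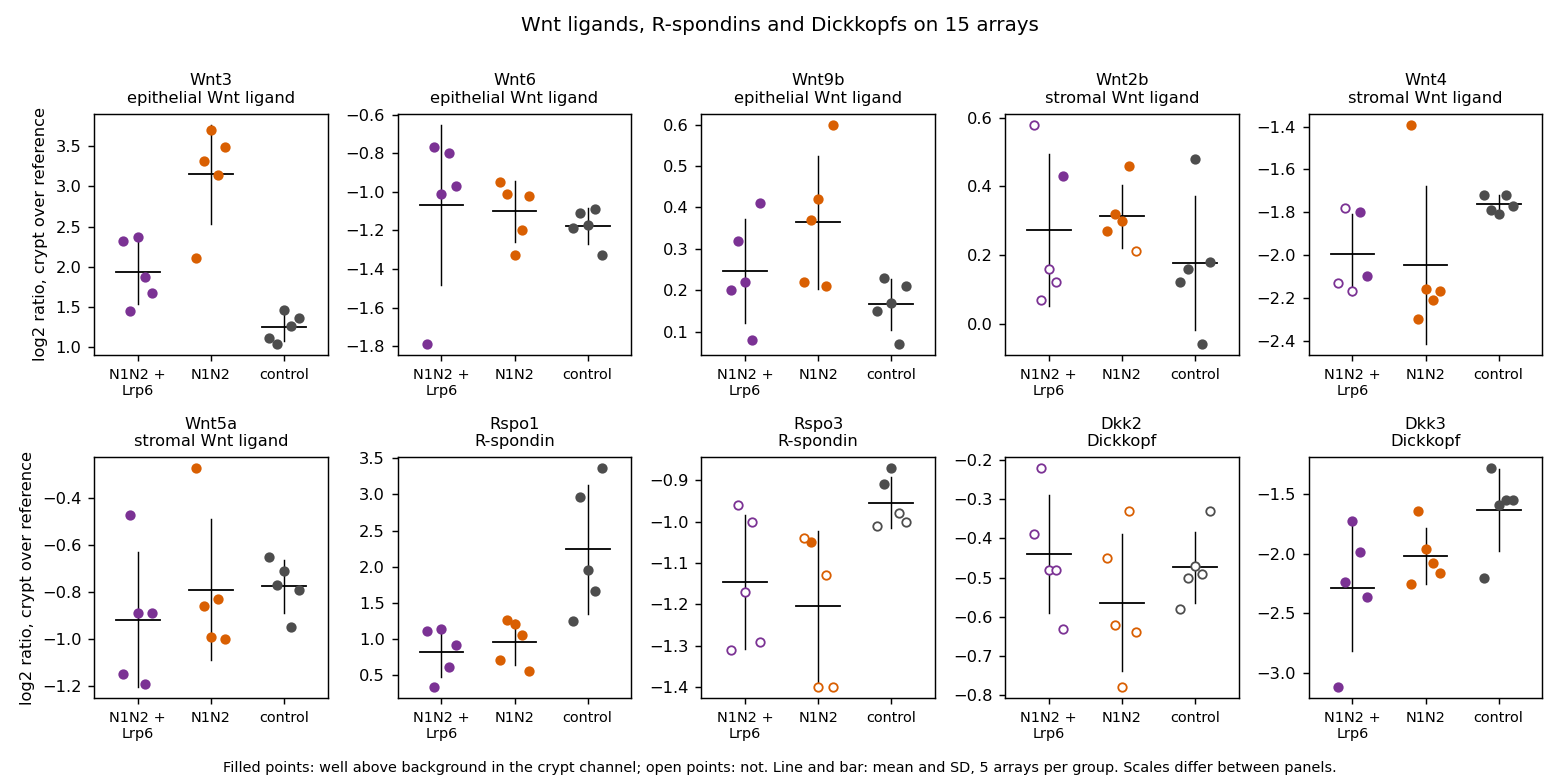
Log2 ratio of crypt over reference on every array for the 10 members, with the N1N2 plus Lrp6, N1N2 and control groups from left to right, 5 arrays each. Lines are means and bars SD, filled points were well above background in the crypt channel, and scales differ between panels. Wnt3 is highest on 4 N1N2 arrays, N1N2 replicate 1 (2.11) lying among the N1N2 plus Lrp6 arrays, and Rspo1 is highest on 4 control arrays, control replicate 1 (1.25) lying just below N1N2 replicate 2 (1.26).

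Blocking Notch1 and Notch2 was compared with the control antibody first. Of the 8 tested members, Wnt3 rose and Rspo1 fell, and the other 6 did not pass the test. That is 25% of the tested members, where 11.4% of all tested probes passed (3257, with 6.2% of all probes higher and 5.23% lower). The signs of the changes were mixed, with 4 members above 0 and 4 below, and their median change was 0.04 against -0.01 over all tested probes. At an unadjusted p under 0.05 there were 3 members, Wnt3, Rspo1 and Wnt9b, where 26.4% of all tested probes were past it.

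Wnt3, an epithelial ligand, had log2 ratios of 2.11, 3.31, 3.70, 3.14 and 3.49 in the N1N2 group (replicates 1 to 5), against 1.12, 1.04, 1.46, 1.26 and 1.37 in the control group. All 5 N1N2 arrays lay above all 5 control arrays, as was so in either direction for 12.2% of all tested probes, and N1N2 replicate 1 was the lowest of its group. The mean was 3.15 ± 0.62 in the N1N2 group and 1.25 ± 0.17 in the control group (SD, n = 5 each), a 3.73-fold difference (log2 change 1.90 ± 0.25 SE, 95% interval 1.37 to 2.42, limma adjusted p = 0.00018). The Wnt3 spot was not well above background in the reference channel on any array, so the ratio to the reference is limited by that channel, but the crypt channel was well above background on all 15. The crypt signal less its local background averaged 1030 ± 370 in the N1N2 group and 199 ± 41.2 in the control group.

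Slide was shared by both groups on only 4 arrays. There Wnt3 averaged 2.71 on the 2 N1N2 arrays and 1.31 on the 2 control arrays, a difference of 1.40, which did not pass with slide as a block (limma, adjusted p = 0.17). Without N1N2 replicate 1 the change was 2.16.

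Wnt6 and Wnt9b, the other epithelial ligands, did not pass the test. Wnt6 had log2 ratios of -0.95, -1.01, -1.33, -1.20 and -1.02 in the N1N2 group, against -1.19, -1.11, -1.17, -1.09 and -1.33 in the control group. N1N2 replicates 1, 2 and 5 lay above all control arrays, and replicates 3 and 4 lay within the control range. The Wnt6 change was 0.08 (95% interval -0.25 to 0.41, limma adjusted p = 0.80), an interval that ends below the lower bound of the Wnt3 change. Wnt9b lies next to Wnt3 on chromosome 11, with no other annotated gene between them in the RefSeq table. It had log2 ratios of 0.22, 0.37, 0.42, 0.21 and 0.60 in the N1N2 group, against 0.15, 0.23, 0.17, 0.07 and 0.21 in the control group. The highest 3 values of the 10 were N1N2 arrays, and the lower N1N2 arrays overlapped with control. The Wnt9b change was 0.20 (95% interval 0.02 to 0.38, limma adjusted p = 0.14). Without background correction it was 0.29 and passed (adjusted p = 0.026).

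Rspo1, an R-spondin, had log2 ratios of 0.71, 1.26, 1.21, 1.05 and 0.55 in the N1N2 group, against 1.25, 2.97, 1.96, 1.67 and 3.37 in the control group. The groups overlapped only in that N1N2 replicate 2 lay just above control replicate 1, and the control arrays were widely spread, with replicates 5 and 2 highest. The mean was 0.96 ± 0.31 in the N1N2 group and 2.24 ± 0.89 in the control group (SD, n = 5 each), 2.44-fold lower in the N1N2 group (log2 change -1.29 ± 0.33 SE, 95% interval -1.98 to -0.59, limma adjusted p = 0.02). The crypt signal less its local background averaged 197 ± 71.4 in the N1N2 group and 794 ± 501 in the control group.

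On the shared slide Rspo1 averaged 0.99 on the 2 N1N2 arrays and 2.52 on the 2 control arrays, and this difference of -1.53 did not pass with slide as a block (limma, adjusted p = 0.32). The call was also lost without control replicate 2 (-1.11, adjusted p = 0.061) and when spots with an uneven local background were kept in the background fit (-0.76, adjusted p = 0.23).

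**Figure D2:**
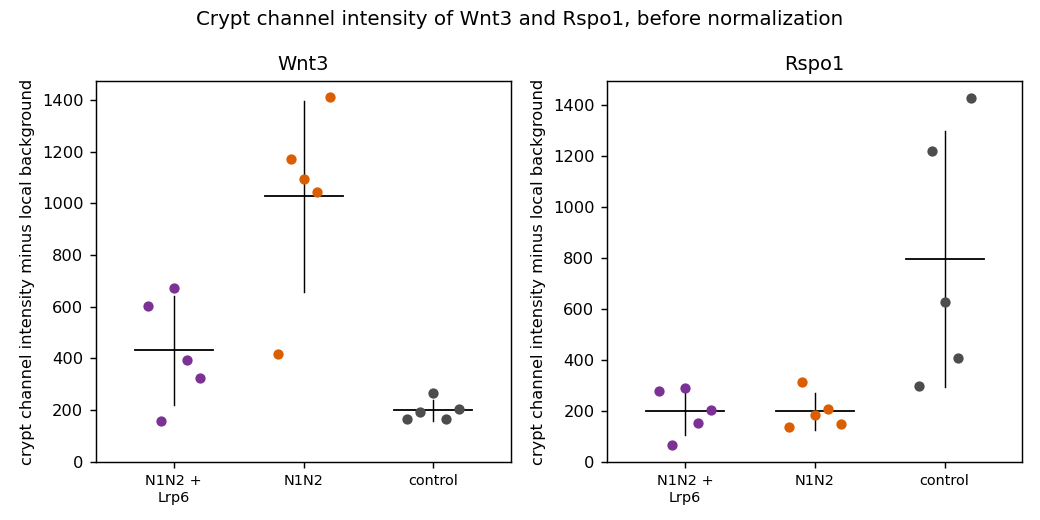
Crypt channel intensity of Wnt3 (left) and Rspo1 (right) less the local background, before normalization, for the N1N2 plus Lrp6, N1N2 and control groups from left to right. Points are arrays, lines means and bars SD (n = 5). The Wnt3 signal averaged 431, 1030 and 199 in these groups, and the Rspo1 signal 197, 197 and 794.

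Markers of mesothelium, the cell layer that covers the outside of the gut, moved with Rspo1. All 4 of the 4 listed genes fell in the N1N2 group against the control group, where 5.23% of all tested probes did. Msln fell by 1.17, Wt1 by 1.14, Upk3b by 1.13 and Lrrn4 by 0.69 on the log2 scale (limma adjusted p = 0.019, 0.0074, 0.009 and 0.013). Their mean log2 ratio was -3.26 ± 0.11 with N1N2 plus Lrp6, -3.21 ± 0.27 with N1N2 and -2.18 ± 0.63 in the control group (SD, n = 5 each). Their summed crypt signal was 3.52 to 5.85, 3.84 to 7.87 and 7.12 to 24.5 ppm in these groups. All 4 were well above background on every control array, whereas Lrrn4 was so on 0 of 5 N1N2 plus Lrp6 arrays and 1 of 5 N1N2 arrays. Lrrn4 thus entered the test only through the control group, where it was high, so its fall is not separate support. In the control group, Rspo1 and each of the 4 markers put replicate 5 highest, then 2, 3 and 4, with replicate 1 lowest. The list mean on control replicate 1 was -2.91, near the highest N1N2 value of -2.97, and Rspo1 on that array was 1.25, within the N1N2 range. Fewer cells of a type and less RNA per cell cannot be told apart in such bulk samples, and the part of mesothelium in the Rspo1 change was not tested.

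The genes whose pattern was nearest to Rspo1 were found among 16046 named genes, by the root mean square difference of log2 ratios over the 15 arrays after each gene was centred on its own mean. This measure uses every array and is a description. Upk3b (0.27), Msln (0.29), Wt1 (0.34), Ptgis (0.35) and Slpi (0.36) were the nearest, where the root mean square of Rspo1 itself was 0.83. Of these 5, 3 are in the mesothelium list, and the remaining gene of that list, Lrrn4, ranked at place 31 (0.52). The list was chosen with earlier results of these data known, so this overlap is not independent support. Msln encodes mesothelin, Wt1 a transcription factor and Upk3b an uroplakin. Ptgis encodes prostacyclin synthase and Slpi a secreted protease inhibitor. Ptgis averaged -4.53 with N1N2 plus Lrp6, -4.20 with N1N2 and -3.16 in the control group, and Slpi averaged -4.20, -3.94 and -2.95.

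The genes nearest to Wnt3, whose own root mean square was 0.88, were Rfx6 (0.18), Ern2 (0.20), Atoh1 (0.24), Gfi1 (0.26) and Rassf6 (0.27). Rfx6 encodes a transcription factor of enteroendocrine cells, Ern2 a sensor of the unfolded protein response in secretory epithelium, Atoh1 the transcription factor of secretory fate, and Gfi1 a transcription factor acting after it. Rfx6 averaged 1.88 with N1N2 plus Lrp6, 3.21 with N1N2 and 1.01 in the control group, against 1.94, 3.15 and 1.25 for Wnt3. Atoh1 averaged 5.31, 6.23 and 4.27. N1N2 replicate 1 was the lowest N1N2 array for Wnt3 and for each of these 5 genes. These genes were picked over the same arrays for likeness to Wnt3, so their shared low array is not separate support.

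Paneth cell markers were read beside Wnt3, and none was among these 5 genes. Of 15 listed Paneth markers, 11 were on the array, and all of these were tested. Among them, Lyz2 is also in the leukocyte list, so it is not particular to Paneth cells. The nearest to Wnt3 was Nupr1 at place 290 (0.63), and Lyz1, the Paneth cell lysozyme, came at place 11217 (0.94). None of the 11 rose in the N1N2 group against the control group, and their median change was 0.11. Copz2 fell by 0.27 on the brighter of its 2 probes (limma adjusted p = 0.023), and the other did not pass (-0.10, adjusted p = 0.55). The largest positive changes, 0.88 for Nupr1 (adjusted p = 0.054) and 0.62 for Mmp7 (adjusted p = 0.099), did not pass. All 11 were well above background on every array, with a mean of 3.84 ± 0.54 with N1N2 plus Lrp6, 4.07 ± 0.28 with N1N2 and 3.93 ± 0.17 in the control group (SD, n = 5 each). The part of Paneth cells in the Wnt3 change was not tested.

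**Figure D3:**
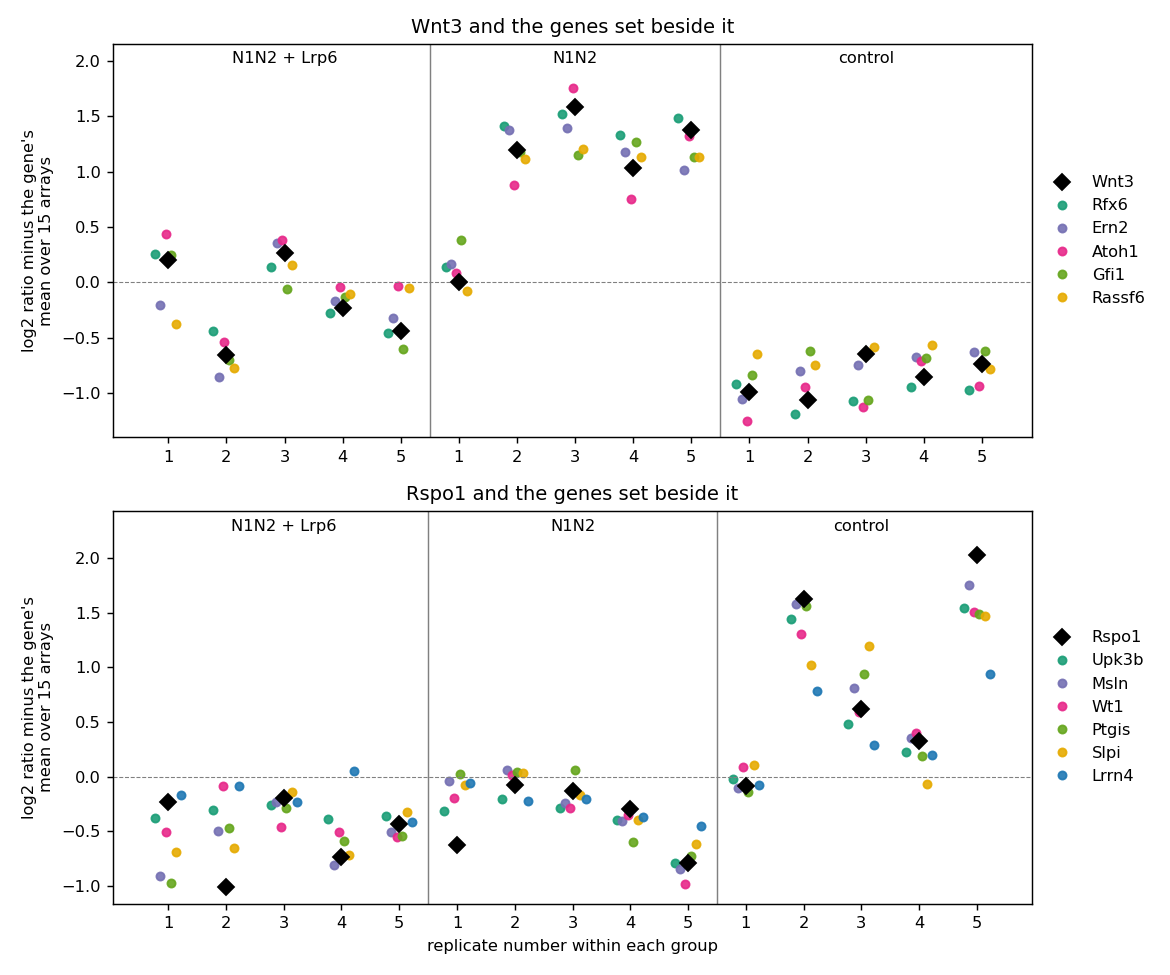
Wnt3 (top) and Rspo1 (bottom) as diamonds on each of the 15 arrays, with the 5 genes nearest in pattern and, for Rspo1, Lrrn4 as circles. The vertical axis is the log2 ratio less the gene's mean over all arrays, and groups run from N1N2 plus Lrp6 to N1N2 to control. Rspo1 ranges from 1.25 to 3.37 over the control arrays before centring, and the mesothelium genes Upk3b, Msln, Wt1 and Lrrn4 spread over those arrays in the same order.

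The stromal ligands did not pass the test between N1N2 and control. Wnt2b, a ligand of the canonical pathway, had 0.27, 0.32, 0.30, 0.46 and 0.21 in the N1N2 group, against 0.12, 0.16, 0.48, -0.06 and 0.18 in the control group. The groups overlapped, and the change was 0.14 (95% interval -0.10 to 0.37, limma adjusted p = 0.47). The Wnt2b probe was well above background on 1 of 5 N1N2 plus Lrp6 arrays, 4 of 5 N1N2 arrays and 5 of 5 control arrays, so its values lay close to background. Wnt4 had -1.39, -2.30, -2.16, -2.21 and -2.17 in the N1N2 group, against -1.72, -1.79, -1.81, -1.72 and -1.77 in the control group. On 4 of the N1N2 arrays Wnt4 lay below all control arrays, and on replicate 1 it lay above them. The change was -0.28 (95% interval -0.58 to 0.02, limma adjusted p = 0.23), and without N1N2 replicate 1 it was -0.44 with adjusted p = 0.0056.

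Wnt5a, which signals largely through Ror2 outside the canonical pathway, had -0.27, -0.86, -0.99, -0.83 and -1.0 in the N1N2 group, against -0.65, -0.77, -0.71, -0.95 and -0.79 in the control group. N1N2 replicate 1 was again above the others, and the groups overlapped. The change was -0.01 (95% interval -0.32 to 0.30, limma adjusted p = 0.97). Its sign turned under the scale (0.06) and quantile (0.08) normalizations between arrays.

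Dkk3, a divergent Dickkopf, had -2.25, -1.64, -1.96, -2.08 and -2.16 in the N1N2 group, against -2.20, -1.28, -1.59, -1.55 and -1.55 in the control group. Control replicate 1 lay among the N1N2 arrays and the other control arrays lay above them, the change being -0.38 (95% interval -0.85 to 0.08, limma adjusted p = 0.29). Control replicate 1 was also the lowest control array for Rspo1. In the mesenchyme and muscle list, 2 of 20 genes fell and none rose, a share near the 11.4% of all tested probes that passed (5.23% lower). They were Dcn by 1.38 and Lum by 1.27 on the log2 scale (limma adjusted p = 0.02 and 0.026), both genes of matrix proteoglycans. The list's median change was -0.27.

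Rspo3 and Dkk2 were not tested. The Rspo3 probe was well above background in the crypt channel on 0 of 5 N1N2 plus Lrp6 arrays, 1 of 5 N1N2 arrays and 2 of 5 control arrays, and its mean log2 ratio was -1.15 ± 0.16, -1.20 ± 0.18 and -0.95 ± 0.06 in these groups (SD, n = 5 each). Its raw crypt intensity was 46.5 to 67 in the N1N2 plus Lrp6 group, 45.5 to 68.5 in the N1N2 group and 59.5 to 109 in the control group. These ranges overlapped, and most of the arrays were not well above background, so no fold is given for Rspo3. The Dkk2 probe was not well above background on any array, with raw intensities of 36 to 53, 34 to 42 and 40 to 49, so no fold is given. Without the filter on dim probes, neither passed in any comparison, and the N1N2 against control changes were -0.25 for Rspo3 (limma adjusted p = 0.11) and -0.09 for Dkk2 (adjusted p = 0.65).

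**Figure D4:**
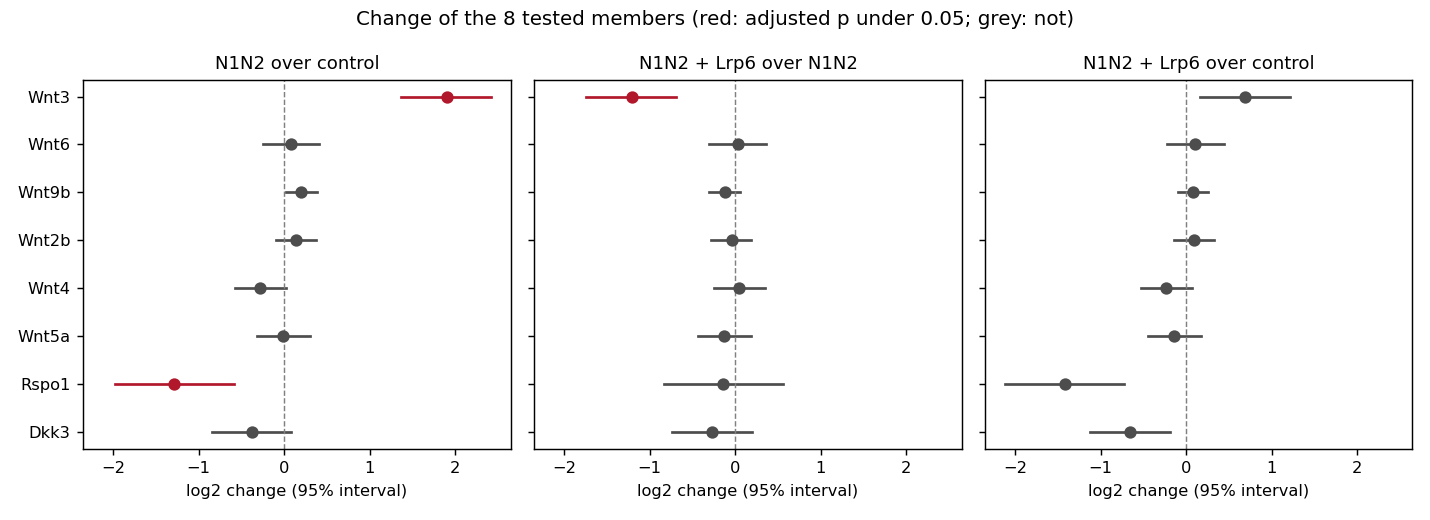
Log2 change of the 8 tested members in the 3 comparisons, with 95% intervals from the fit and red for an adjusted p under 0.05. Wnt3 (1.90) and Rspo1 (-1.29) passed for N1N2 over control, Wnt3 (-1.21) for N1N2 plus Lrp6 over N1N2, and no member for N1N2 plus Lrp6 over control. The N1N2 arrays enter the panels of N1N2 over control and N1N2 plus Lrp6 over N1N2, and the control arrays both panels over control, so the panels are not independent.

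The Lrp6 antibody was then compared on top of the Notch antibodies, N1N2 plus Lrp6 against N1N2. Wnt3 fell, and the other 7 tested members did not pass. That is 12.5% of the members, where 16.5% of all tested probes passed (4713, with 9.67% of all probes higher and 6.87% lower), so the share of members was below that of all probes. No member had groups that did not overlap, as 9.99% of all probes did, and only Wnt3 had an unadjusted p under 0.05, as 29.1% of all probes did. Of all calls 58.5% were higher, or 77.2% with median centring in place of loess within arrays. Across all 8 members the median change was -0.12, against 0 over all tested probes.

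Wnt3 had log2 ratios of 2.32, 1.45, 2.37, 1.88 and 1.67 in the N1N2 plus Lrp6 group, against the N1N2 values of 2.11 to 3.70 given above. The groups overlapped only through N1N2 replicate 1, and the other 4 N1N2 arrays lay above all N1N2 plus Lrp6 arrays. The mean was 1.94 ± 0.40 in the N1N2 plus Lrp6 group and 3.15 ± 0.62 in the N1N2 group (SD, n = 5 each), 2.32-fold lower with the Lrp6 antibody (log2 change -1.21 ± 0.25 SE, 95% interval -1.74 to -0.69, limma adjusted p = 0.0048). The crypt signal less background was 431 ± 209 in the N1N2 plus Lrp6 group and 1030 ± 370 in the N1N2 group. No slide held both groups, so slide and treatment cannot be told apart here. With slide as a random block the change was -1.15 (limma, adjusted p = 0.00047). The estimated correlation within slides was negative (-0.18), and the count over all probes became 8333 in place of 4713. The smaller p under this block is therefore not support for the change. The change was -0.99 and no longer passed (adjusted p = 0.078) when spots with an uneven local background were kept in the background fit.

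Atoh1, one of the genes nearest to Wnt3 in pattern, fell by 0.92 on the log2 scale in this comparison (limma adjusted p = 0.021), and Hes1 rose by 0.54 (adjusted p = 0.011). The likeness of Atoh1 to Wnt3 was found over these same arrays, so the Atoh1 fall is not separate support. No Paneth marker of 11 passed, and their median change was -0.42.

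The other epithelial ligands stayed within the spread between arrays. Wnt6 had -1.79, -0.77, -1.01, -0.80 and -0.97 in the N1N2 plus Lrp6 group, where replicate 1 was far below the rest, and its change was 0.03 (95% interval -0.30 to 0.36, limma adjusted p = 0.93). Wnt9b had 0.20, 0.32, 0.22, 0.08 and 0.41 there and a change of -0.12 (95% interval -0.30 to 0.06, adjusted p = 0.39). Both intervals cover 0, and both groups overlapped for each gene.

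Among the stromal members, Rspo1 had 1.11, 0.33, 1.14, 0.61 and 0.91 in the N1N2 plus Lrp6 group, overlapping with its N1N2 range of 0.55 to 1.26. The change was -0.14 (95% interval -0.83 to 0.56, limma adjusted p = 0.85), and the mesothelium list had a median change of 0 with none of 4 past the test. In the N1N2 plus Lrp6 group Wt1 and Upk3b were well above background on 2 of 5 arrays and Lrrn4 on 0. Their values lay close to background there, which limits the list median. Wnt2b had 0.58, 0.07, 0.16, 0.12 and 0.43 in the N1N2 plus Lrp6 group, 4 of the 5 values not well above background, and a change of -0.04 (95% interval -0.28 to 0.19, adjusted p = 0.86). Wnt4 had -2.13, -1.78, -2.17, -1.80 and -2.10, with 2 of 5 well above background and a change of 0.05 (95% interval -0.25 to 0.35, adjusted p = 0.88). The sign of the Wnt4 change turned under the scale (-0.15) and quantile (-0.07) normalizations, and that of Wnt6 did too (-0.10 and -0.11).

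Wnt5a had -1.15, -0.47, -0.89, -1.19 and -0.89 in the N1N2 plus Lrp6 group and a change of -0.13 (95% interval -0.44 to 0.18, limma adjusted p = 0.63). Dkk3 had -3.12, -2.24, -1.73, -1.99 and -2.36 there, with replicate 1 lowest, and a change of -0.27 (95% interval -0.74 to 0.20, adjusted p = 0.47). N1N2 plus Lrp6 replicate 1 thus held the lowest value of its group for both Wnt6 and Dkk3. That array had the lowest mesenchyme and muscle mean of all arrays (-3.92). It also had the lowest Paneth cell (3.1), epithelium (5.13) and endothelium and lymphatics (-0.62) means. Its mesothelium, leukocyte and lung epithelium means were not the lowest. Its share of spots well above background, 57.2%, was the lowest of all arrays. In this comparison 7 of the 20 mesenchyme and muscle genes fell and none rose, with a median of -0.40, where 6.87% of all tested probes fell. Among those 7 were Col1a2, a collagen gene, by 0.88 (limma adjusted p = 0.0078) and Acta2, the smooth muscle actin gene, by 0.81 (adjusted p = 0.011). No stromal member passed beside them, and whether the difference between members and markers exceeds the spread was not tested.

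The combined treatment was also set against control. No member passed the limma test at an adjusted p under 0.05, where 0.358% of all tested probes did (102). Of those calls 54.9% were higher, or 38.1% with the scanner's own log ratios and 68.3% after scaling between arrays. At an unadjusted p under 0.05 there were 3 members of 8, where 12.8% of all tested probes were past it, namely Wnt3, Rspo1 and Dkk3. The median change of the members was -0.03, against 0.01 over all tested probes.

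Wnt3 was 1.61-fold higher in the N1N2 plus Lrp6 group than in the control group, 1.94 ± 0.40 against 1.25 ± 0.17 (log2 change 0.69, 95% interval 0.16 to 1.21, limma adjusted p = 0.27). The groups overlapped by a narrow margin, 1.45 on N1N2 plus Lrp6 replicate 2 against 1.46 on control replicate 3. In the crypt channel alone, quantile normalized, the change was 0.95 with adjusted p = 0.049. With slide as a random block it was 0.79 and passed (adjusted p = 0.015), but no slide held both groups, the estimated correlation was negative (-0.18), and the count over all probes became 3276 in place of 102, so that calls gained under this block are not support for a change.

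Rspo1 was 2.68-fold lower in the N1N2 plus Lrp6 group, and all 5 of its arrays (0.33 to 1.14) lay below all 5 control arrays (1.25 to 3.37), as 2.62% of all tested probes did in either direction. The log2 change was -1.42 (95% interval -2.12 to -0.73, limma adjusted p = 0.077). It passed without control replicate 1 (-1.67, adjusted p = 0.025) and in the crypt channel alone (-1.52, adjusted p = 0.048), and, with the limit just given for Wnt3, under slide as a random block (-1.43, adjusted p = 0.0025). Msln and Wt1 of the mesothelium list fell by 1.47 and 1.20 in the same comparison (adjusted p = 0.045 each), 2 of the 4 genes, where 0.161% of all tested probes fell. The control arrays are the same as in the first comparison, so the 2 comparisons of Rspo1 with control are not independent.

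Dkk3 was 0.65 lower on the log2 scale in the N1N2 plus Lrp6 group, -2.29 ± 0.52 against -1.64 ± 0.34 in the control group (SD, n = 5 each, 95% interval of the change -1.12 to -0.19, limma adjusted p = 0.24). It passed only under slide as a random block (adjusted p = 0.018), with the same limit. The groups overlapped through control replicate 1. In the mesenchyme and muscle list 3 of 20 genes fell in this comparison and none rose, where 0.161% of all tested probes fell. For the remaining members the changes ran between -0.23 for Wnt4 and 0.11 for Wnt6, none with an adjusted p below 0.52.

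Other genes of the pathway were counted by list. Of all tested probes, 11.4% passed for N1N2 over control, 16.5% for N1N2 plus Lrp6 over N1N2 and 0.358% for both treatments over control. Among 13 other Wnt ligands, 10 were tested. Wnt5b, a relative of Wnt5a, fell by 0.36 in the N1N2 group against the control group (limma adjusted p = 0.0049), and Wnt10a fell by 0.40 in the N1N2 plus Lrp6 group against the N1N2 group (adjusted p = 0.044). No other ligand passed in either comparison, and none passed against control with both treatments. The list medians were 0.02, -0.02 and -0.08 for N1N2 over control, N1N2 plus Lrp6 over N1N2 and N1N2 plus Lrp6 over control. Of the other R-spondins and Dickkopfs, Rspo4, Dkk4 and Dkkl1 were tested and did not pass in any comparison, while Rspo2 and Dkk1 were too dim to test.

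Notum encodes a secreted enzyme that inactivates Wnt proteins by removing their lipid. It rose in the N1N2 group, with a mean of 1.69 in the N1N2 group against 1.09 in the control group (log2 change 0.61 ± 0.13 SE, limma adjusted p = 0.0084). It was the only one of 6 tested among 10 other secreted inhibitors to pass in any comparison, and with both treatments its mean was 1.43. Of 9 tested genes of Wnt secretion, Tmed2, which carries cargo out of the endoplasmic reticulum, rose by 0.46 in the N1N2 group against control (adjusted p = 0.017) and fell by 0.49 with the Lrp6 antibody against N1N2 (adjusted p = 0.0086). These values are from the brighter of its 2 probes, and the other did not pass and differed in sign, at -0.45 (adjusted p = 0.29) and 0.02 (adjusted p = 0.97). Vps29 of the retromer, which recycles the Wnt carrier Wls, rose by 0.32 with the Lrp6 antibody against N1N2 (adjusted p = 0.023). Porcn, which attaches the lipid to Wnt proteins, and Wls itself did not pass, at 0.25 and -0.24 in the N1N2 group against control (adjusted p = 0.13 and 0.32).

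Among 22 receptors that bind the members, 20 were tested. Fzd1, a Frizzled receptor, fell by 0.39 in the N1N2 group against control (limma adjusted p = 0.03). Lgr5, an R-spondin receptor and stem cell marker, averaged 1.43 with N1N2 plus Lrp6, 2.09 with N1N2 and 2.64 in the control group. It fell by 1.21 with both treatments against control (adjusted p = 0.045), while its changes of -0.55 for N1N2 over control (adjusted p = 0.16) and -0.66 for N1N2 plus Lrp6 over N1N2 (adjusted p = 0.078) did not pass. Lrp6, the target of the antibody, averaged 1.37 with N1N2 plus Lrp6, 1.68 with N1N2 and 1.37 in the control group and did not pass. An antibody acts on the protein, which the arrays do not measure.

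**Figure D5:**
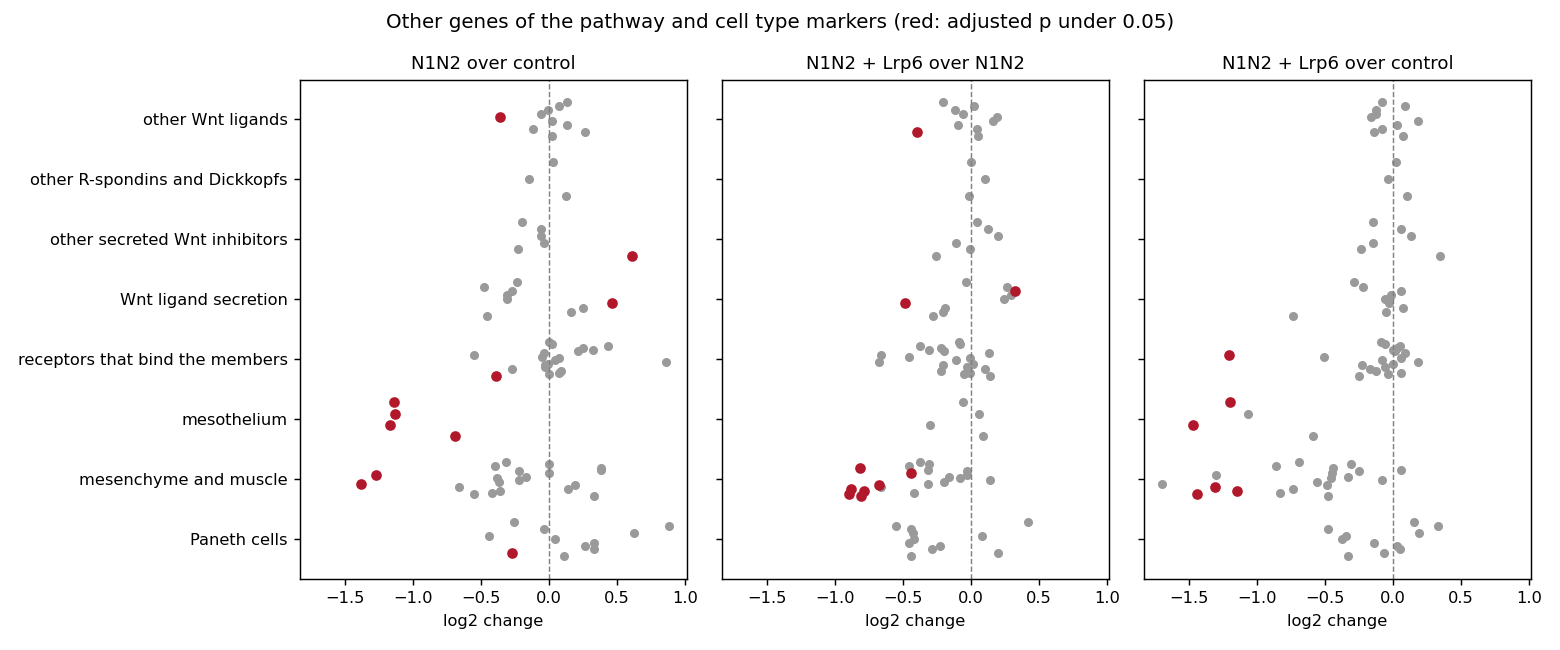
Log2 change of every tested gene of the pathway and marker lists in the 3 comparisons, 1 point per gene, red for an adjusted p under 0.05. All 4 mesothelium genes lie below 0 and passed for N1N2 over control, where 11.4% of all tested probes passed. Lrrn4 entered the test only through the control group. For N1N2 plus Lrp6 over N1N2, 7 of 20 mesenchyme and muscle genes passed, where 16.5% of all tested probes did. Notum (0.61) is the only other secreted Wnt inhibitor that passed.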

How the data were processed

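Small-intestinal crypts were profiled on 15 Agilent 2-colour arrays, per the labels' protocols with crypt RNA in Cy5 and a universal mouse reference in Cy3. Per the file headers, the scanner files that the authors deposited hold median intensity and local background intensity per spot and a log10 ratio of red over green, from Feature Extraction 11.0.1.1 with probes designed on mm9. A further table deposited by the authors gives log2 values. Of its making, the submitters' processing notes name only limma 3.6.7 and R 3.0.0. Its columns correlated with the values computed here at r of at least 0.999981, in the same direction and scale, with column medians of 0.0144 to 0.0286.

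Calculations used limma 3.58.1 under R 4.3.3, with the package data.table at version 1.17.8. Spots with the scanner's flags for uneven signal, uneven background or outliers (306 to 642 of 44397 per array) were left out before background correction by normexp (offset 50). Log2 ratios were normalized within arrays by loess, control spots at weight 0, and spots of a probe were averaged. Intensities were used as they stand only for crypt signals. A probe was tested if well above background in the crypt channel on 4 or more of the 5 arrays in any group. Groups were compared in 1 limma fit of 15 arrays (lmFit, eBayes, two-sided), with Benjamini-Hochberg adjustment over 28488 probes and a threshold of 0.05. Names came from accessions matched, without version, to a RefSeq table of GRCm38.p6, 26581 probes having one. Promoters are RefSeq's.

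The members, the gene lists and the rule for named genes were chosen with earlier results of these data known. Named were all members, every listed pathway gene that passed (at most the 6 of largest change per list and comparison), the markers beside a member, and the 5 genes nearest in pattern to Wnt3 and Rspo1; other genes with values, such as Lrp6, Porcn and Wls, were named after their values were seen. The lists were other Wnt ligands, other R-spondins and Dickkopfs, other inhibitors, Wnt secretion, receptors, and markers of Paneth cells, mesenchyme and muscle, endothelium and lymphatics, mesothelium, leukocytes, epithelium and lung epithelium. Where a listed gene had several probes, the brightest was used.

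Data were simulated from the probe means and the spreads within groups of all 15 arrays (28044 probes). For N1N2 against control, the fit recovered 98 of 100 probes changed by 2 on the log2 scale. It recovered 89 of 100 changed by 1, with 10 false calls. The simulated noise was independent between probes and arrays, with no slide effect, so these rates need not hold for the real arrays. No array was a copy of another (highest correlation of 2 arrays 0.9927). The number of arrays limits the precision. In all, 16 other processing choices were tried, and normexp offset 10 and the crypt channel alone were further choices made after the data were seen.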

Additional observations from a re-analysis of the deposited data

Results flagged for a closer look

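In 3 of 24 groups of 5 arrays, 12.5%, the highest or lowest array of a tested member stood apart from the others by more than Dixon's limit, where chance sets about 1 in 20 groups apart. Wnt6 was -1.79 on N1N2 plus Lrp6 replicate 1, far below the other arrays of that group at -1.01 to -0.77. Wnt4 was -1.39 on N1N2 replicate 1, above the other N1N2 arrays at -2.30 to -2.16. Wnt5a was -0.27 on the same array, above the others at -1.0 to -0.83. N1N2 replicate 1 also had the lowest Wnt3 value of its group (2.11), which was not set apart by this limit.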

How the results depend on the processing

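Wnt3 rose in N1N2 against control in each alternative except slide as a fixed block, where it was 1.40 (adjusted p = 0.17), with changes from 1.40 to 2.19. Its fall with the Lrp6 antibody against N1N2 ran from -1.48 to -0.94 and was lost only when spots with uneven backgrounds were kept (-0.99, adjusted p = 0.078). Rspo1 in N1N2 against control ran from -1.65 to -0.76 (limma, adjusted p from 0.0071 to 0.32). It was lost with slide as a fixed block, with those spots kept, and without control replicate 2. It passed with slide as a random block (-1.23, adjusted p = 0.0095), where the estimated correlation was negative (-0.18). The count of members past the threshold in N1N2 against control was 0 with slide as a fixed block, where 4 arrays carry the difference, 1 with uneven backgrounds kept, 3 without background correction (Wnt9b gained), and 1 to 3 with an array left out. With the Lrp6 antibody against N1N2 it was 0 with uneven backgrounds kept and 1 with an array left out. With both treatments against control it was 3 with slide as a random block (Wnt3 0.79, Rspo1 -1.43, Dkk3 -0.65; estimated correlation -0.18), 2 in the crypt channel alone, and 0 to 1 with an array left out, Rspo1 passing without control replicate 1. For all probes in N1N2 against control the count was 2151 with the scanner's log ratio, 1457 with median centring, 4970 with 2 groups only, 117 with slide as a fixed block, and 1747 (without control replicate 2; 1756 without control replicate 5, 1815 without N1N2 replicate 4) to 4655 (without N1N2 plus Lrp6 replicate 1) with an array left out. For the Lrp6 antibody against N1N2 it was 8333 with slide as a random block, 2730 with uneven backgrounds kept, and 2937 (without N1N2 replicate 4) to 5624 with an array left out. For both treatments against control it was 181 with the scanner's log ratio, 34 with median centring, 63 with scaling between arrays, 54 with 2 groups only, 3276 with slide as a random block, 52 with uneven backgrounds kept, 159 with offset 10, and 27 (without control replicate 2) to 422 (without N1N2 plus Lrp6 replicate 5) with an array left out, moving by over 1.5 times without any 1 of the 5 control arrays, N1N2 replicate 4 or N1N2 plus Lrp6 replicates 2 to 5. The causes were not tested. Signs turned only in changes that did not pass: for N1N2 over control Wnt5a (scaling 0.06, quantile 0.08, slide block 0.31, an array left out -0.14 to 0.04), Wnt6 (uneven backgrounds kept -0.05) and Wnt2b (crypt channel alone -0.06). For N1N2 plus Lrp6 over N1N2 they were Wnt6 (scanner -0.01, scaling -0.10, quantile -0.11, uneven backgrounds kept -0.05, an array left out -0.04 to 0.21), Wnt4 (scanner -0.18, scaling -0.15, quantile -0.07, uneven backgrounds kept -0.17, crypt channel alone -0.11, an array left out -0.01 to 0.21) and Wnt2b (uneven backgrounds kept 0.02, an array left out -0.12 to 0.01). For N1N2 plus Lrp6 over control they were Wnt6 (uneven backgrounds kept -0.10) and Wnt2b (crypt channel alone -0.07). With the replicate number as a block, the count of all probes for both treatments against control was 32, and no member call changed (Wnt3 in N1N2 against control, adjusted p = 0.00078). Deviations of same-numbered arrays correlated at -0.01 to 0.61 for N1N2 and control, -0.42 to 0.08 for N1N2 plus Lrp6 and N1N2, and -0.26 to 0 for N1N2 plus Lrp6 and control, so not every pair in any comparison was above 0.1 and a pairing was not established, although 4 of the 5 N1N2 and control pairs were above it and 2 of 5 N1N2 and 3 of 5 control arrays correlated best with their own number. Slide could not be a fixed block where no slide held both groups. Signal over background limits Wnt2b, Wnt4, Rspo3 and Dkk2.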

Other observations

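Immune genes and keratins gave further values on the same arrays. Of 11 leukocyte markers, 3 fell in the N1N2 group against control, where 5.23% of all tested probes did. Gzma, a granzyme of cytotoxic lymphocytes, fell by 0.77 (limma adjusted p = 0.0048), Cd3e, a T cell receptor subunit, by 0.64 (adjusted p = 0.036) and Itgax, an integrin of dendritic cells, by 0.74 (adjusted p = 0.049). On the brightest probe of each gene none rose, and none of the 11 passed in the other comparisons. A dimmer probe of Csf1r, a macrophage receptor gene, fell by 0.66 in the N1N2 group against control (adjusted p = 0.012) and by 1.04 with both treatments against control (adjusted p = 0.0068), where its brightest probe changed by 0.10 and 0.16 and did not pass. Of 10 epithelial markers, Krt18, a keratin of simple epithelia, rose by 0.83 in the N1N2 group against control (adjusted p = 9.5e-05) and fell by 0.58 with the Lrp6 antibody against N1N2 (adjusted p = 0.0019), like Wnt3 in sign, and no other passed.

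Of 8 endothelial and lymphatic markers, 5 were tested and Pecam1, an endothelial adhesion gene, fell by 0.23 with the Lrp6 antibody against N1N2 (limma adjusted p = 0.048). Lyve1, a lymphatic marker, averaged 1.53 with N1N2 plus Lrp6, 1.48 with N1N2 and 1.55 in the control group, and Flt4 was not well above background on any array. Of 4 tested lung epithelium markers, all 4 rose in the N1N2 plus Lrp6 group against N1N2, where 9.67% of all tested probes did. Against control 2 rose, where 0.197% of all tested probes did. Sftpa1 was well above background on 5 N1N2 plus Lrp6 arrays, 0 N1N2 and 0 control arrays, so it entered the test only through the group where it was high. A dimmer probe of Sftpd passed against control (limma, 1.31, adjusted p = 0.023), and its brightest did not (0.59, adjusted p = 0.12). Sftpc, a lung surfactant gene, averaged 5.44 with N1N2 plus Lrp6, 0.10 with N1N2 and 1.20 in the control group.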
